A study of Mus musculus with 17 samples.

Results

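The colon of WT mice on day 7 of a challenge with dextran sodium sulfate (DSS) was compared with the colon of WT mice on day 0. Both groups were chosen by their sample titles. They hold 5 of the 17 samples of the series, 2 on day 7 and 3 on day 0, and every probe set of the array was used except for its controls. The WT mice were Cre- mice on a C57BL/6J background. The study's abstract writes PPAR γ flfl for mice with and without Cre together, so the WT mice may also carry floxed PPAR γ alleles. The mice of day 7 drank water with 2.5% DSS while those of day 0 received no DSS. Their comparison asks which transcripts of the colon differ after 7 days of DSS when T cells hold PPAR γ. The other groups named below are WT mice on day 2 of DSS (n = 3) and CD4cre mice on days 0 and 7 (n = 3 each). CD4cre mice are PPAR γ flfl and carry a Cre transgene driven by the CD4 promoter, which deletes PPAR γ from CD4+ and CD8+ T cells because T cell precursors pass through a CD4+ stage in the thymus. The ages of the mice and the number of mice behind an array are not given in the sources used here, so p-values measure the spread between samples.

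DSS is a sulfated polysaccharide that damages the epithelium of the colon when it is drunk, which lets bacteria reach the underlying tissue. The response is known to pass from loss of dividing crypt cells to entry of monocytes and neutrophils, with cytokines such as IL-6 and IL-1β, adhesion molecules on vessels, matrix-degrading enzymes and acute phase proteins. Illness and weight loss also raise adrenal glucocorticoids, which act on many colon cells through a nuclear receptor.

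Total RNA of colonic mucosa was hybridized to Affymetrix mouse genome arrays, and values are log2 intensities of probe sets. Values up to 3.53 were taken as background, since 95% of the readings of 130 probe sets whose genes are specific to other tissues did not exceed it, and 48.3% to 48.8% of all probe sets were above it in the 5 samples. Colon markers were present throughout: the mucin Muc2 lay between 15.47 and 15.75 and the epithelial protein Vil1 between 12.05 and 12.44. Smooth muscle genes were also strong in this mucosal RNA, with a mean over 14 genes of 12.16 to 12.48 on day 0 and of 12.09 and 12.02 on day 7. The SD between samples (root mean square) was 0.217 on WT day 7 and 0.357 on WT day 0. The Pearson correlation over probe sets was 0.997 between the day 7 samples, 0.991 to 0.994 among the day 0 samples and 0.991 to 0.995 between the groups. Some samples stood apart. A Hox score (mean of the posterior Hox genes minus that of the anterior ones, which vary along the gut) was 0.787 in WT day 0 replicate 2, 0.158 and 0.144 in the other day 0 samples and -0.0803 and -0.00872 on day 7. Pancreatic enzyme genes had a median of 2.29 to 2.5 in the 5 samples, below background, and of 12.2 to 12.7 in 3 samples of the other groups, of which 1 was WT day 2 replicate 2. The number of arrays limits the precision of every value.

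On day 7 of DSS, 39 of 45037 probe sets differed from day 0 at an adjusted p under 0.05 (0.0866%, limma), of which 34 were higher (0.0755%) and 5 lower (0.0111%). Of these, 26 were above background in the group with the higher mean, 21 of them higher and 5 lower on day 7, and they included 23 probe sets that name 22 genes. The protease inhibitor Serpina3n had the largest called change, followed by the transcription factor Zbtb16, the vascular adhesion molecule Vcam1 and the deacetylase Hdac6. The mitotic spindle protein Ckap2l, the microtubule protein Stmn1 and the mitochondrial ADP/ATP carrier Slc25a5 had the largest called falls. The median size of the called changes above background was 0.72 on the log2 scale. At an unadjusted p under 0.05 there were 4309 probe sets (9.57%), 1714 higher (3.81%) and 2595 lower (5.76%), so most of the differences below lay between these thresholds. The called count was 5 when only the groups compared were fitted, 12 with a filter on low values, 140 without WT day 7 replicate 1 and 228 without WT day 7 replicate 2. With array weights it was 2497, 1123 higher and 1374 lower, but limma's estimate of those weights stopped before it converged and gave 16.6 to WT day 0 replicate 1 against 0.207 to 3.83 for the other samples. With weights estimated gene by gene, an alternative added after the data were seen that gave no such warning, the count was 205, 139 higher and 66 lower. The excess of rises over falls also depended on the day 0 samples. Without WT day 0 replicate 1 there were 24 higher and 18 lower, without replicate 2 there were 23 and 24, and without replicate 3 there were 16 and 15. Of the 23 called probe sets above background that name a gene, 2 kept the call without any of the 5 compared samples (Ckap2l and 1 of Zbtb16), 5 lost it without each of them (Zfp579, Slc25a5, Ccdc117, Rrp1 and the other of Zbtb16) and 16 lost it in 2 to 4 of these 5 fits.

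**Figure D1:**
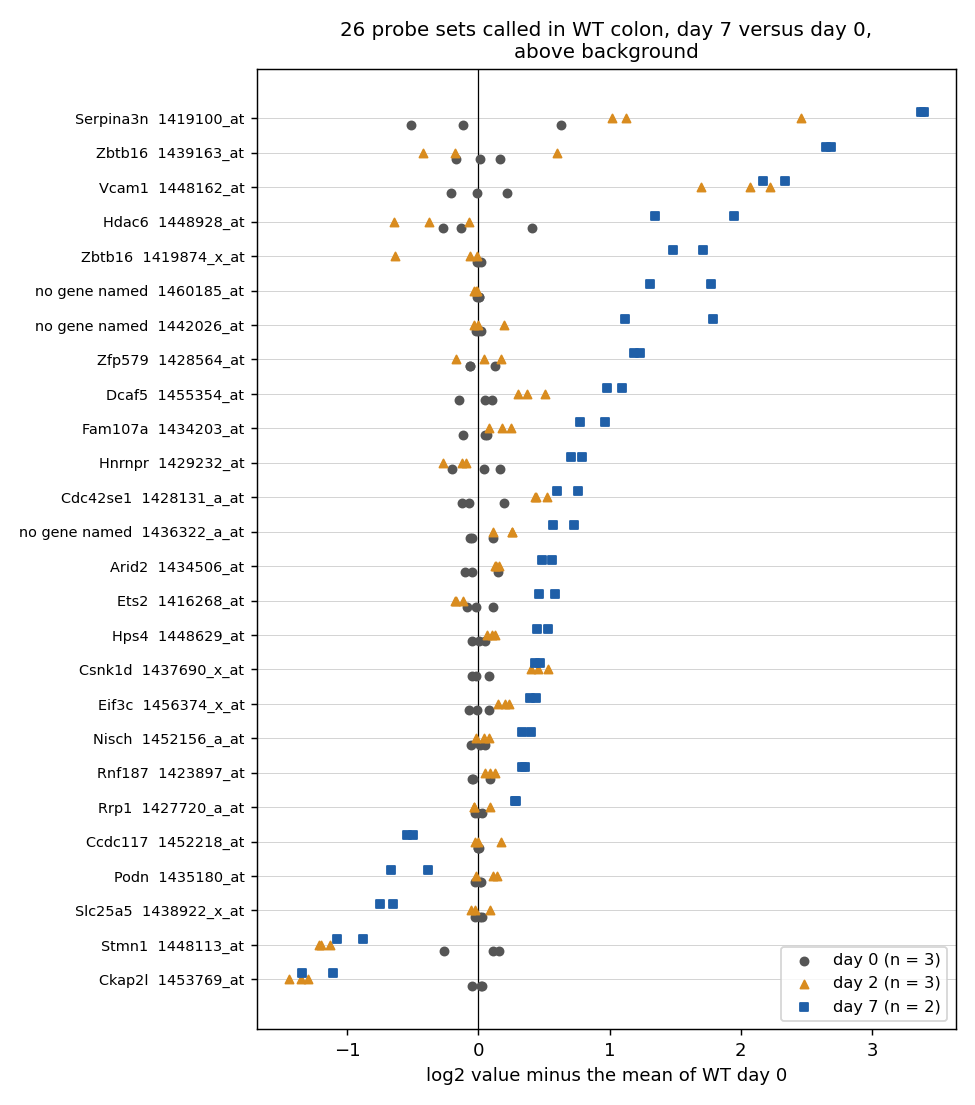
The 26 called probe sets above background in WT colon, each sample as its log2 value minus the mean of WT day 0 (circles day 0, triangles day 2, squares day 7). The day 7 samples lie outside the range of the day 0 samples for every probe set, from 3.38 higher for Serpina3n to 1.23 lower for Ckap2l, and the day 2 samples of Vcam1, Csnk1d, Stmn1 and Ckap2l lie near those of day 7.

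Serpina3n encodes a secreted inhibitor of serine proteases that is made in the acute phase response. Its log2 values were 5.89, 7.03 and 6.29 on day 0 and 9.78 and 9.80 on day 7. The groups did not overlap, which was also the case for 46% of all probe sets. The rise was 3.38 on the log2 scale (SE 0.49, adjusted p = 0.0335), or 10.4-fold. On day 2 the values were 7.42, 8.87 and 7.53, between those of the other days. In CD4cre mice the change from day 0 to day 7 was 4.78 (SE 0.44), and the difference of 1.40 between the genotypes had an adjusted p of 0.53. The call was lost in 4 of the 5 fits that left out 1 of the compared samples, with changes between 3.13 and 3.85 in all settings.

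The promoter windows of the largest called rise, the largest called fall and 1 glucocorticoid-induced gene are shown, since the motifs searched in them belong to the pathways described below. They are RefSeq sequences of GRCm38.p6, from 250 bases before to 50 after the start of the gene, on its strand, and capitals mark the matches. The STAT site TTCNNNGAA, the E-box CACGTG, the glucocorticoid response element AGAACANNNTGTTC and the NF-kappaB motif were searched on both strands. Serpina3n lies at chr12:104406458-104406757 (plus strand), Ckap2l at chr2:129297163-129297462 (minus strand) and 1 of the 3 windows of Fam107a at chr14:8309730-8310029 (minus strand).
Serpina3n: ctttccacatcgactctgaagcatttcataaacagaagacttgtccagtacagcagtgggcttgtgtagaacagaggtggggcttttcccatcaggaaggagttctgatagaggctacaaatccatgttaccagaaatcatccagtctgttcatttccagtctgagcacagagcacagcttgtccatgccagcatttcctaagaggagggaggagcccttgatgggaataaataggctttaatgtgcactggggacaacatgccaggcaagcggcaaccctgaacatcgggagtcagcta
Ckap2l: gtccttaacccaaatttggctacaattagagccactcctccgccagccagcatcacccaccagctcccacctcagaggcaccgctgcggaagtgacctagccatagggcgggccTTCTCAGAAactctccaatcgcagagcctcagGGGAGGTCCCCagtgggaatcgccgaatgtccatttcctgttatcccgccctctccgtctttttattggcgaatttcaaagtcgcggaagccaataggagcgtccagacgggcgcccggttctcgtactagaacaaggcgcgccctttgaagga
Fam107a: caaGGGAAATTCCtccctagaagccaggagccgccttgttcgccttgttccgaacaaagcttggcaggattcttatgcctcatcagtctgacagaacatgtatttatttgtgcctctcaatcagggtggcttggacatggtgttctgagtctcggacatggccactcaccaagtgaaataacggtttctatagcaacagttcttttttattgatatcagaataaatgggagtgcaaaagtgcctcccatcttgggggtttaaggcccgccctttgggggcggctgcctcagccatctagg
The Serpina3n window held none of the 4 motifs. That of Ckap2l held a STAT site 136 bases before the start and a pair of overlapping NF-kappaB matches 104 and 103 bases before it, and that of Fam107a held an NF-kappaB match 247 bases before the start. Of the called genes, 24 had a window, and Zbtb16, Vcam1 and Stmn1 were among those without one, so they were not searched. The 24 genes had 29 windows, of which 4 held a STAT site (in Ckap2l, Eif3c, Gimap6 and Hnrnpr), and 8.3% of all 32851 windows held one. NF-kappaB matches were in 6 of the 29 windows, of 5 genes (Alms1, Ckap2l, Dcaf5, Fam107a and Hnrnpr), against 8.46% of all windows. Fam107a has overlapping windows that hold the same site, which is counted in each of them. Of the 24 genes with a window, 16 were above background, and Alms1 and Gimap6 were not among these 16. The E-box (7.15% of all windows) and the glucocorticoid response element (0.0487%) were in none of the windows of called genes. The latter is so rare over all windows that its absence from 29 windows says nothing about the called genes. A match is a description of the letters in a window.

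Zbtb16 (PLZF) encodes a zinc finger transcription factor that is known for innate-like T cells and as a gene that glucocorticoids induce in many tissues. It was the only gene with more than 1 called probe set. The first probe set had values of 5.08, 5.09 and 5.12 on day 0 and of 6.81 and 6.58 on day 7, and it rose by 1.60 (SE 0.19, adjusted p = 0.0109). The other had values of 4.18, 4.51 and 4.36 on day 0 and of 7.04 and 7.00 on day 7, a rise of 2.67 (SE 0.42, adjusted p = 0.048), or 6.36-fold. A further probe set of the gene was 0.42 higher and was not called. On day 2 both called probe sets were at or near the day 0 level, with values of 4.46 to 5.08 and of 3.92 to 4.94, and day 7 was above day 2 by 1.83 (adjusted p = 0.00273) and 2.67 (adjusted p = 0.0303). In CD4cre mice they were lower on day 7 than on day 0 by 0.25 and 0.37, with SE of 0.17 and 0.38. The difference between the genotypes was -1.85 (SE 0.26, adjusted p = 0.0216) for the first and -3.04 (SE 0.57, adjusted p = 0.0682) for the second. The call of the first was kept when any of the 5 compared samples was left out, and that of the second was lost in each of these fits.

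Vcam1 encodes an adhesion molecule of activated endothelium that binds integrins of monocytes and lymphocytes. Its values were 6.60, 7.03 and 6.79 on day 0 and 9.14 and 8.98 on day 7, a rise of 2.25 (SE 0.32, adjusted p = 0.0335), or 4.77-fold. Vcam1 was already high on day 2, at 9.03, 8.88 and 8.51, and day 7 was 0.25 above day 2 (SE 0.32, adjusted p = 0.907). In CD4cre mice it was 2.66 higher on day 7 than on day 0 (SE 0.29), and the difference between the genotypes was 0.40 (SE 0.43, adjusted p = 0.921). The other probe sets of Vcam1 were 1.41 higher (adjusted p = 0.200) and 0.02 lower (adjusted p = 0.99), so the probe sets did not give the same change. The call was lost without 3 of the 5 compared samples in turn.

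**Figure D2:**
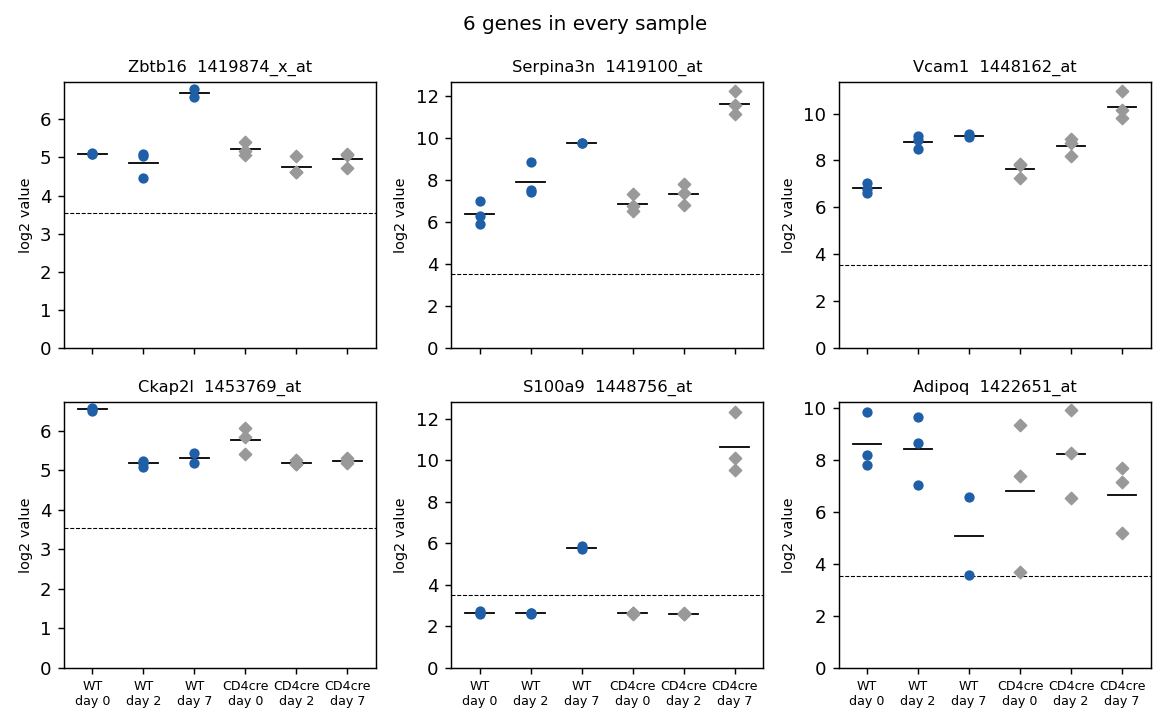
Log2 values of 6 genes in all 17 samples, with WT as circles and CD4cre as diamonds, lines at the group means and a dashed line at the background level of 3.53. Zbtb16 is high in the WT day 7 samples, S100a9 is at 5.71 and 5.89 there and at background in both day 0 groups, and Adipoq spreads from 3.56 to 6.56 in the WT day 7 samples.

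The other called rises above background with a gene named were of Hdac6, Zfp579, Arid2, Hps4 and the genes that follow them. Hdac6, a cytoplasmic deacetylase of tubulin, had values of 4.74, 4.05 and 4.19 on day 0 and of 6.28 and 5.67 on day 7, and it rose by 1.65 (SE 0.24, adjusted p = 0.0335). It was at 3.69 to 4.25 on day 2, so day 7 was the high time point. In CD4cre mice Hdac6 was 1.12 higher on day 7 than on day 0 (SE 0.21), and the difference was -0.53 (adjusted p = 0.693). The zinc finger gene Zfp579 went from 4.04 to 4.24 on day 0 to 5.30 and 5.34 on day 7 (1.21, SE 0.18, adjusted p = 0.0361), a call that was lost without each of the 5 compared samples. In CD4cre mice the change was -0.30 (SE 0.16), and the difference of -1.51 was itself called (adjusted p = 0.037). Arid2, a subunit of a SWI/SNF chromatin complex, rose by 0.52 (SE 0.07, adjusted p = 0.0302), and its difference between the genotypes was -0.62 (adjusted p = 0.0328). The other 3 probe sets of Arid2 lay between -0.07 and 0.15. Hps4, which belongs to a complex for lysosome-related organelles, rose by 0.49 (SE 0.06, adjusted p = 0.0207) with a difference of -0.67 (adjusted p = 0.0148).

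Dcaf5, a substrate receptor of a ubiquitin ligase, rose by 1.04 (SE 0.15, adjusted p = 0.0335) in 1 probe set. Its other 4 probe sets lay between -0.02 and 0.16, but their day 0 means of 1.70 to 3.75 were below or near background. Hnrnpr, an RNA-binding protein, rose by 0.74 in the called probe set (adjusted p = 0.0335), which was near background on day 0 (3.49 to 3.85). Its other 4 probe sets differed by -0.10 to 0.27 and had day 0 means of 10.95, 11.44, 8.28 and 3.78. Fam107a, an actin-binding protein known to be induced by glucocorticoids, rose by 0.87 (SE 0.13, adjusted p = 0.0346) from 4.55 to 4.74 on day 0 to 5.64 and 5.45. Its more strongly hybridizing probe set was 0.75 higher and was not called. Nisch, a cytosolic protein that binds integrin α5, rose by 0.36 (adjusted p = 0.0234), and its other 4 probe sets were 0.40 to 0.75 higher. The remaining called rises were small. They were Cdc42se1 (0.68), an effector of the GTPase CDC42, the transcription factor Ets2 (0.52), Csnk1d (0.45), the casein kinase that phosphorylates PER clock proteins, the translation initiation subunit Eif3c (0.41), the ubiquitin ligase Rnf187 (0.34) and the ribosomal RNA processing gene Rrp1 (0.29), with adjusted p between 0.0335 and 0.0481. Of 32 alternative settings, the call was lost in 27 for Rrp1, 24 for Cdc42se1, 23 for Rnf187, 22 for Eif3c, 21 for Ets2 and 17 for Csnk1d. Csnk1d was at 10.99 to 11.12 on day 2 and at 11.06 and 11.02 on day 7, and its other 4 probe sets differed from day 0 by -0.21 to 0.23. In 3 further probe sets above background no gene is named, with rises of 1.54, 1.45 and 0.65. The first pair was below background on day 0, and their rises were at least 1.53-fold and 1.27-fold.

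The called falls were of Ckap2l, Stmn1, Slc25a5, Podn and Ccdc117. Ckap2l, which localizes to the mitotic spindle, had values of 6.56, 6.57 and 6.49 on day 0 and of 5.43 and 5.19 on day 7, a fall with a log2 change of -1.23 (SE 0.14, adjusted p = 0.00778). It was as low on day 2, at 5.09 to 5.23. Its call was kept without any of the 5 compared samples, and its other probe set was 0.62 lower and was not called. Stmn1, a microtubule-destabilizing protein of proliferating cells, had values of 7.98, 7.93 and 7.56 on day 0 and of 6.75 and 6.95 on day 7. Its log2 change was -0.98 (SE 0.14, adjusted p = 0.0346), with day 2 at 6.61 to 6.69, and its stronger probe set differed by -0.12 and was not called. The changes in CD4cre mice were -0.53 for Ckap2l (SE 0.13) and -0.73 for Stmn1 (SE 0.13), and neither difference between the genotypes was called (adjusted p = 0.186 and 0.823).

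Slc25a5, an ADP/ATP carrier of the inner mitochondrial membrane, was strongly expressed, with a mean of 13.03 and a highest value of 13.06 on day 0 and values of 12.28 and 12.38 on day 7. Its log2 change was -0.70 (SE 0.11, adjusted p = 0.048), a call that was lost without each of the 5 compared samples and in 23 of 32 settings. All 8 of its probe sets were lower on day 7, and the other 7 lay between -0.10 and -0.62. On day 2 this probe set was at the day 0 level (12.97 to 13.12). Podn, a small leucine-rich proteoglycan of the matrix, went from 5.40 to 5.45 on day 0 to 5.04 and 4.76, with a log2 change of -0.53 (SE 0.08, adjusted p = 0.048). Ccdc117 had a log2 change of -0.52 (SE 0.08, adjusted p = 0.0486). The calls of Podn and Ccdc117 were each lost in 25 of the 32 settings.

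The other 13 called probe sets had both group means at or below background. All were higher on day 7, by 0.22 to 1.05 on the log2 scale, and their highest value was 3.54. They name Sidt1, Gimap6, Mttp, Rassf4, Gpr174, Trmt6, Alms1, Folr1, B4galnt4, Tmem241 and Adamtsl5, and 2 name no gene. Their median residual SD was 0.0368, against 0.14 for all probe sets. These 13 differences are given as values without a level of expression. Some of the genes have other probe sets above background, none of them called. On day 0 their means were 7.1 for Sidt1 (0.83 higher on day 7) and 6.1 for Gimap6 (0.70 higher). They were 7.5 and 6.5 for Rassf4 (0.11 and 0.78 higher) and 7.5 and 4.6 for Trmt6 (0.14 and 0.10 higher). With values below background raised to it, 6 probe sets were called instead of 39, and 4 of them were among the 39.

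**Figure D3:**
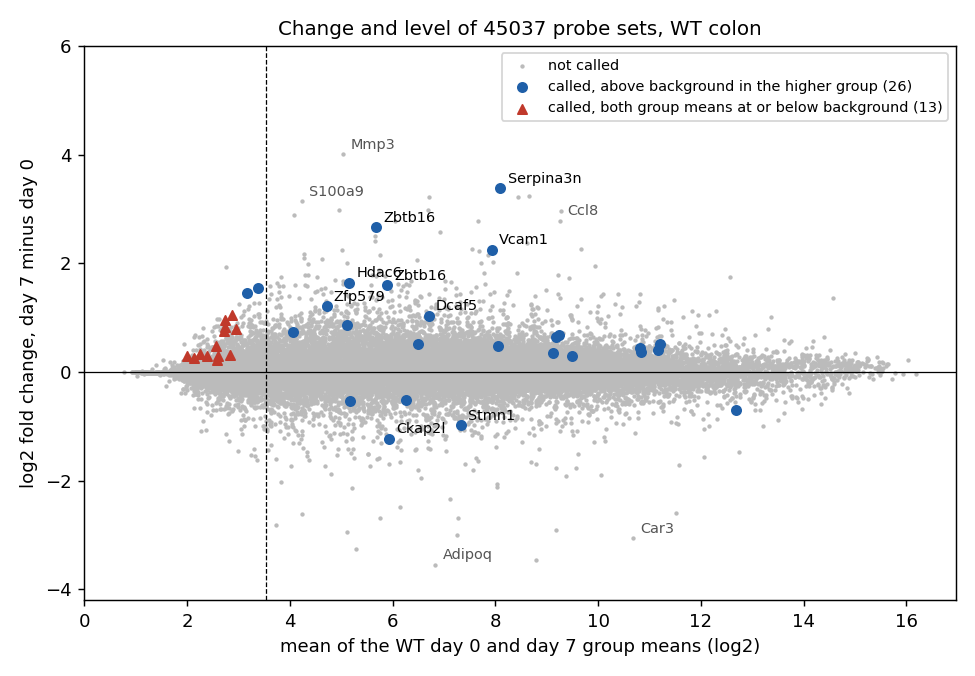
Log2 fold change from day 0 to day 7 against the mean of the group means for 45037 probe sets in WT colon, with a dashed line at background. The 13 called probe sets at or below background (triangles) cluster at changes of 0.22 to 1.05, and the largest changes, of Mmp3 and Adipoq, are not among those called.

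In CD4cre mice, whose day 0 samples are separate from those of the WT mice, the day 7 change had the same sign for 16 of the 26 called probe sets above background (61.5%), against 60.7% of all probe sets above background. The test of the difference between the genotypes called 63 probe sets over the array (0.14%; 9.83% at an unadjusted p under 0.05). Among the 26, it called 7, and the difference was not called for the other 19. The WT change is part of that difference, so the 7 were not chosen independently of it. The direction was the same in all 7, with the larger rise in WT mice.

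The largest differences by size were mostly not called. Among genes above background with an unadjusted p under 0.05 and groups that did not overlap, the 10 largest rises included Serpina3n and Zbtb16, and the other 8 were Mmp3, S100a9, Grasp, S100a8, Ccl8, Clec7a, Hoxd3os1 and Clca4b. None of the 10 largest falls was called, which were Adipoq, Car3, Slc34a2, Sprr1a, Clca4a (-2.60), Cpn1 (-2.33), Trpm6, Slc26a3 (-1.89), Scd1 (-1.77) and Mxd1 (-1.77). Grasp, a scaffold protein, was 2.99 higher (adjusted p = 0.114), from 2.19 to 4.41 on day 0 to 6.27 and 6.62. Mmp3, a stromelysin that degrades matrix, was below background on day 0 (2.76, 3.21 and 3.13) and had values of 7.66 and 6.42 on day 7. It was 4.0 higher (SE 0.95, adjusted p = 0.24), which is at least 11.3-fold against the background level. Its SD was 0.24 on WT day 0, 0.88 on WT day 7 and 1.71 on CD4cre day 7, and the SE takes in all of these. On day 2 it lay at 3.86, 7.00 and 4.32, and in CD4cre mice, where it was also below background on day 0, it was at a mean of 11.22 on day 7, at least 205-fold higher.

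S100a9 and S100a8 form calprotectin, an abundant protein of neutrophils and young monocytes. S100a9 was at background in the 3 day 0 samples (2.62 to 2.72) and the 3 day 2 samples (2.60 to 2.65) and was at 5.71 and 5.89 on day 7. It was 3.15 higher (SE 0.55, adjusted p = 0.0837), at least 4.81-fold. The SD of S100a9 was 0.056 on WT day 0 and 0.129 on WT day 7, but 1.47 on CD4cre day 7, which also enters this SE. S100a8 had values of 2.59 to 2.75 on day 0 and of 6.15 and 4.91 on day 7 and was 2.88 higher (SE 0.55, adjusted p = 0.122), at least 3.98-fold. In CD4cre mice S100a9 was below background on day 0 and at a mean of 10.66 on day 7. The test of the difference between the genotypes was called (adjusted p = 0.0318), but the size of that difference does not measure a level since both day 0 groups were below background. Of 16 neutrophil genes measured, 12 were at or below background in both WT groups. The adjusted p of S100a9 passed the threshold in 8 of 32 alternative settings.

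Monocyte and macrophage genes were higher on day 7. Of 24 genes, 13 were higher at an unadjusted p under 0.05, none was lower and none was called, while over all 18193 genes, read from 1 probe set each, 5.13% were higher and 5.19% lower at that threshold and 0.104% were called. Their median difference was 0.80 on the log2 scale, against -0.02 over all genes. In 19 of the 24 both day 7 samples were above all day 0 samples, which was the case for 13.3% of all genes. Of the 24, 22 were above background. Among the 11394 genes above background, 893 were higher at the unadjusted threshold and 2341 had day 7 above all of day 0. The mean of the list was 7.21, 7.28 and 7.21 on day 0 and 8.01 and 8.15 on day 7. The 13 genes were 8 without WT day 7 replicate 1 or replicate 2, and 10 or 11 without 1 of the day 0 samples. In a tissue, more cells of a type and more RNA per cell cannot be told apart.

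Clec7a, the β-glucan receptor dectin-1, was at 6.92, 5.75 and 6.17 on day 0 and at 8.93 and 9.17 on day 7 (2.77 higher, SE 0.56, adjusted p = 0.138). Mpeg1, a pore-forming protein of macrophages, was at 8.20 to 8.28 on day 0 and at 9.77 and 9.72 on day 7 (1.52 higher, adjusted p = 0.241). The Fc receptor γ chain Fcer1g was 1.31 higher (adjusted p = 0.384), and the lysosomal protein Cd68 was 1.31 higher (adjusted p = 0.488). The median of the list was 0.56 on day 2 against the same day 0 samples, and 2.19 on day 7 in CD4cre mice.

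**Figure D4:**
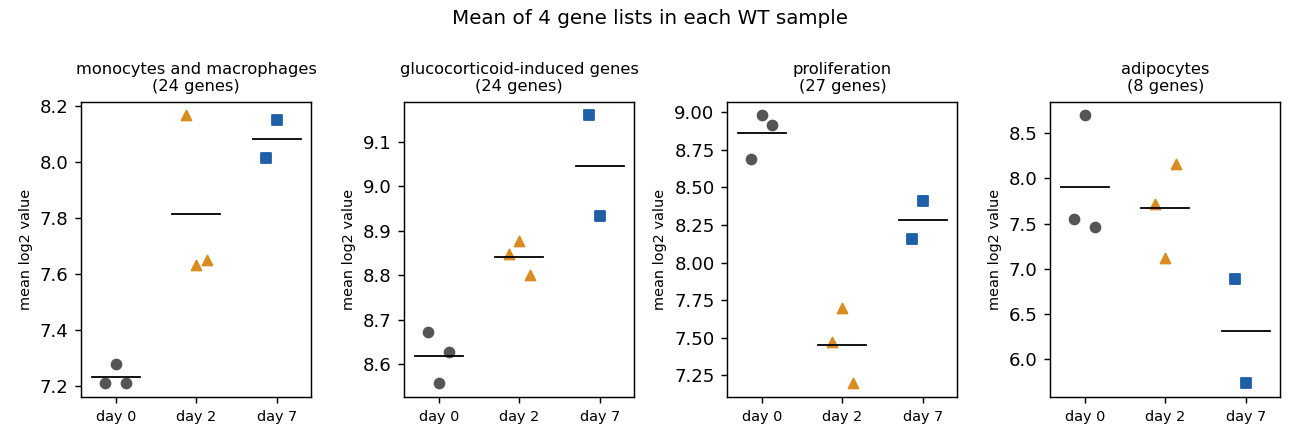
Mean log2 value of 4 gene lists in each WT sample on days 0, 2 and 7, with lines at the group means. Monocyte and macrophage genes are at 7.21 to 7.28 on day 0 and at 8.01 and 8.15 on day 7, while the adipocyte genes are at 6.89 and 5.73 on day 7.

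Of the other signals to leukocytes, 5 of 27 chemokine genes were higher at an unadjusted p under 0.05 (5.13% of all genes) and none was lower. None was called, and the median was 0.09. With the Hox score as a covariate the median was 0.61 and 23 of the 27 were positive, in place of 16. They were Ccl8, Ccl5, Cxcl13, Cxcl16 and Cxcl12, and the 5 were 2 without WT day 7 replicate 2 and 3 without WT day 7 replicate 1 or WT day 0 replicate 2. Ccl8, which attracts monocytes, was at 7.34, 7.71 and 8.54 on day 0 and at 10.58 and 10.71 on day 7 (2.78 higher, SE 0.56, adjusted p = 0.138). Cxcl13, the chemokine of B cell follicles, was at 6.51 to 6.90 and then at 8.69 and 8.74 (2.00 higher, adjusted p = 0.258), and it was at a mean of 9.48 on day 2. The B cell genes Ms4a1 and Cd79b were 1.44 and 1.5 higher (adjusted p = 0.488 for both), 2 of 11 genes of that list, of which 1 passed without WT day 0 replicate 3 or WT day 7 replicate 1. Of the T and NK cell list, 12 of 18 genes were at or below background, and the granule protease Gzmb (0.93 higher, adjusted p = 0.488) was the only member with an unadjusted p under 0.05. Without WT day 0 replicate 2, WT day 0 replicate 3 or WT day 7 replicate 2 no member of it was higher at that threshold.

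Among the adhesion and extravasation genes, 3 of 15 were higher at an unadjusted p under 0.05, which were Vcam1, called, and the leukocyte integrin chains Itgax and Itgb2, while 5.13% of all genes were. The 3 were 1 without WT day 7 replicate 1, 2 without any 1 of the other 4 compared samples and 5 with the Hox score. Itgax was at 4.28 to 4.30 on day 0 and at 5.69 and 5.17 on day 7 (1.15 higher, SE 0.49, adjusted p = 0.488). Itgb2 was at 5.81 to 5.96 and then at 6.93 and 6.79 (0.95 higher, SE 0.36, adjusted p = 0.488). Madcam1, the addressin of gut venules, was below background on day 0 (2.94 to 3.13) and at 4.13 and 4.12 on day 7 (adjusted p = 0.488), at least 1.5-fold. Icam1 overlapped between the groups, at 3.84 to 5.33 and at 5.09 and 4.90 (0.51 higher, SE 0.49, adjusted p = 0.634). The P-selectin gene Selp was below background in all 5 samples, and the highest probe set of Itgav differed by -0.12 (SE 0.31, adjusted p = 0.894), a sign that changed with array weights, with the Hox score and without WT day 0 replicate 3.

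Il6 was below background in every WT sample compared, while Il1b was higher on day 7 without passing the test. Il6 was at 2.13 to 2.17 in all 5 samples, and its difference was -0.01 (SE 0.36, adjusted p = 0.991). The sign of this difference changed when the arrays were centred or quantile normalized and with the Hox score. The SD of Il6 was 0.021 on WT day 0 and 0.012 on WT day 7, but 0.97 on CD4cre day 7, which also enters this SE. In CD4cre mice Il6 was below background on day 0 and at a mean of 8.76 on day 7, at least 37.4-fold higher. The difference between the genotypes was called (adjusted p = 0.000145), but its size does not measure a level since both day 0 groups were below background. Il1b was at 3.77, 3.55 and 2.24 on day 0 and at 5.70 and 5.01 on day 7 (2.17 higher, SE 0.85, adjusted p = 0.488). Socs3, the feedback inhibitor of the IL-6 receptor, was at 7.80 to 8.21 and then at 9.14 and 9.49 (1.26 higher, SE 0.64, adjusted p = 0.488). Another of its probe sets was 0.77 higher (adjusted p = 0.646), and a weak one was below background in all 5 samples. For the weak probe set of Socs3 the difference between the genotypes was called (adjusted p = 0.0216). Its size is not given since the day 0 means of both genotypes were below background. Pparg itself overlapped, at 9.97 to 11.21 on day 0 and at 10.50 and 10.29 on day 7 (-0.24, SE 0.59, adjusted p = 0.884), and the sign of its difference changed without WT day 0 replicate 3 and with a replicate block.

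Of 22 genes of IL-6 and STAT3 signalling, 4 were higher at an unadjusted p under 0.05 (5.13% of all genes) and none was called, with a median of 0.30. They were the protease inhibitor Timp1 (3.13 to 3.54 on day 0, 5.28 and 5.39 on day 7; 1.98 higher, adjusted p = 0.48), Cebpd, the oncostatin M receptor Osmr and Stat3. The 4 were 1 without WT day 7 replicate 1 and 2 without WT day 0 replicate 1 or replicate 2. Among 17 acute phase genes, Serpina3n was called, Lrg1 and Hp were higher and Saa2 was lower at an unadjusted p under 0.05. The 3 higher ones were 5 without WT day 0 replicate 3. Lrg1, a secreted leucine-rich glycoprotein, went from 3.20 to 3.87 on day 0 to 5.09 and 5.17 (1.58 higher, SE 0.34, adjusted p = 0.171). Haptoglobin (Hp) was below background on day 0 (2.51 to 3.33) and at 4.64 and 3.88 on day 7, at least 1.65-fold (adjusted p = 0.488). The differences between the genotypes were called for both, with larger increases in CD4cre mice. Means of CD4cre mice on day 7 were 8.002 for Lrg1 and 9.34 for Hp, and Hp was at least 55.9-fold above day 0, where it was below background.

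Of 24 glucocorticoid-induced genes, all above background, 8 were higher and 1 was lower at an unadjusted p under 0.05, and Zbtb16 was called. Over all genes 5.13% were higher and 5.19% lower at that threshold. Of the 11394 genes above background, 893 were higher and 379 lower. The median was 0.45 in WT mice and -0.12 in CD4cre mice. The mean of the list was 8.56 to 8.67 on day 0 and 9.16 and 8.93 on day 7. The metallothioneins Mt2 and Mt1 were 1.43 and 1.21 higher (adjusted p = 0.488 for both), and Per1 was 1.28 higher (adjusted p = 0.412). Without WT day 7 replicate 1 there were 4 genes in place of 8. Fam107a is also a member of the list, and its probe set there was not called.

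Per1 is also a clock gene. Of 18 clock genes, 5 were higher at an unadjusted p under 0.05 (5.13% of all genes), none was lower and none was called. Per3 was at 3.20 to 3.37 on day 0 and at 4.74 and 5.07 on day 7 (1.59 higher, at least 2.59-fold, adjusted p = 0.258), and Per2 was at 4.97 to 5.04 and then at 6.04 and 6.62 (1.32 higher, adjusted p = 0.333). Both were higher still on day 2, with means of 5.37 for Per3 and 8.65 for Per2. The period genes oscillate over the day, and the hour of sampling is not given in the sources used here, so hour and day of DSS cannot be told apart. The clock list had a median of 0.33 in WT and of -0.15 in CD4cre mice.

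Proliferation genes were lower on day 7. Of 27 genes, 8 were lower at an unadjusted p under 0.05 (5.19% of all genes), none was higher and none was called. A negative difference was seen in 25, with a median of -0.68. In 19 of 27 both day 7 samples were below all day 0 samples, against 30.3% of all genes. All 27 were above background, and of the 11394 genes above background 1565 had day 7 below all of day 0. At that unadjusted threshold 379 of the 11394 were lower. The mitotic kinesin Kif20a was at 7.02 to 7.29 on day 0 and at 5.42 and 6.08 on day 7 (-1.42, SE 0.51, adjusted p = 0.488), and Birc5 (survivin) had a mean of 9.80 and then lay at 8.67 and 8.94 (-0.99, adjusted p = 0.488). The mean of the list was 8.69 to 8.98 on day 0, 7.20 to 7.70 on day 2 and 8.16 and 8.41 on day 7. The 8 genes were 2 without WT day 0 replicate 2 and 4 without WT day 0 replicate 3. Over all 18193 genes the number lower, 945, was 1608 and 587 in the same fits. The list and all genes thus moved in opposite directions without WT day 0 replicate 2. Leaving out a day 7 sample leaves 1 in that group. The median of the list was then -0.466 without WT day 7 replicate 1 and -0.778 without WT day 7 replicate 2.

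Among 21 genes of surface colonocytes, 2 were lower at an unadjusted p under 0.05 (5.19% of all genes) and 9 had day 7 below all of day 0 (30.3% of all genes). Of the 21, 19 were above background, and day 7 lay below all of day 0 for 1565 of the 11394 genes above background. The 2 were 0 without WT day 7 replicate 2, 1 without WT day 7 replicate 1, WT day 0 replicate 2 or WT day 0 replicate 3, and 4 with the Hox score. Slc26a3, the chloride and bicarbonate exchanger of the surface, had values of 11.52, 13.51 and 13.48 on day 0 and of 11.15 and 11.41 on day 7 (-1.56, SE 0.65, adjusted p = 0.488). This is its strongest probe set, and another one, at 9.31 to 12.05 and then at 8.94 and 9.27, gave the -1.89 above. WT day 0 replicate 1 was close to the day 7 samples for this gene, so the difference rested on the other day 0 samples. The monocarboxylate transporter Slc16a1, which takes up butyrate, had a difference of -1.0 (SE 0.31, adjusted p = 0.447). Slc34a2, a phosphate transporter, was at 6.61 to 7.69 on day 0 and at 4.34 and 4.48 on day 7 (-2.69, SE 0.66, adjusted p = 0.258). Trpm6, a magnesium channel of the colon, was at 8.36 to 10.15 and then at 6.99 and 7.02 (-2.05, SE 0.46, adjusted p = 0.206).

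Of 15 crypt stem and progenitor genes, Ascl2, a transcription factor of stem cells, was the only member with an unadjusted p under 0.05, where 5.13% of all genes were higher. It was at 3.98 to 5.04 on day 0 and at 6.40 and 5.67 on day 7 (1.67 higher, adjusted p = 0.447), and no member passed without WT day 7 replicate 1. None of 17 goblet cell genes and none of 12 enteroendocrine genes passed that threshold, with medians of 0.11 and 0.73. Without WT day 0 replicate 1, 2 goblet cell genes and 3 enteroendocrine genes were higher at it. The barrier genes went both ways: Cldn1 was 0.70 higher and Cldn23 differed by -0.85, with adjusted p of 0.488 and 0.483. Of 14 repair genes of injured epithelium, 2 were higher, among them the growth factor Ereg (1.42, adjusted p = 0.488), and 3 were lower, among them Sprr1a (-2.68, adjusted p = 0.488). None of these 5 repair genes passed without WT day 0 replicate 3 or without WT day 7 replicate 1.

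Adipocyte genes were lower on day 7 in all 8 genes measured, with 5 at an unadjusted p under 0.05 (5.19% of all genes), none called and a median of -1.43. Adiponectin (Adipoq), a hormone of fat cells, was at 7.81, 9.82 and 8.20 on day 0 and at 6.56 and 3.56 on day 7 (-3.55, SE 1.59, adjusted p = 0.488). Car3, the carbonic anhydrase of fat cells, was at 11.79 to 12.92 and then at 10.62 and 7.67 (-3.06, SE 1.31, adjusted p = 0.488), and the lipid droplet protein Cidec was at 6.13 to 7.02 and then at 5.09 and 4.78 (-1.58). WT day 7 replicate 2 was the lowest of the 5 samples for each. Of the 8 genes, 1 had an unadjusted p under 0.05 without it, 2 without WT day 0 replicate 3, 3 without WT day 0 replicate 1 or replicate 2, and 4 without WT day 7 replicate 1. The list had a median of 0.04 in CD4cre mice. The part of the adipocyte genes in other differences was not tested.

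Metabolic and translation genes differed by little. At an unadjusted p under 0.05, 5.13% of all genes were higher and 5.19% lower. Of the 11394 genes above background, 893 were higher and 379 lower. Of 22 citrate cycle genes, 5 were lower at an unadjusted p under 0.05 and none was higher, with a median of -0.15 and Dld lowest (-0.44, adjusted p = 0.488). The 5 were 1 without WT day 7 replicate 1, 2 without WT day 7 replicate 2 and 10 with the Hox score (median -0.29). Of 43 genes of cytosolic ribosomal proteins, 10 were higher and none was lower, with a median of 0.12. The 10 were 3 without WT day 7 replicate 2 and 5 without WT day 0 replicate 1, and the list had a median of -0.17 in CD4cre mice. Of 23 apoptosis genes, 5 were higher and none was lower, among them the BH3-only gene Bcl2l11 (1.04, adjusted p = 0.488) and the death receptor Fas, at 7.34 to 7.63 on day 0 and at 8.16 and 8.05 on day 7 (0.60, adjusted p = 0.24). The 5 apoptosis genes were 1 without WT day 0 replicate 3, 2 without WT day 7 replicate 1 or replicate 2 and 3 without WT day 0 replicate 2. No member of these 3 lists was called.

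Of 14 complement genes, 3 were higher at an unadjusted p under 0.05 (7 with the Hox score; 5.13% of all genes), among them C1qc, at 6.20 to 6.26 on day 0 and at 7.5 and 7.41 on day 7 (1.22, adjusted p = 0.333). Of 9 MHC class II genes, 2 were higher, H2-Aa (1.04) and H2-Eb1 (0.83), with a median of 0.82, and at most 1 passed when any of the 5 samples was left out. Of 13 metalloproteinases and inhibitors, 3 were higher: Mmp3, Timp1 and Mmp7, and the last was below background on day 0 and at 2.96 and 5.24 on day 7, at least 1.48-fold. None of 24 interferon-stimulated genes passed the threshold, with a median of 0.36. Of 25 fibroblast and matrix genes, Pdgfra was higher (0.62, adjusted p = 0.488) and 3 were lower, among them Podn, called, and Mfap5, a microfibril protein (-0.82, SE 0.16, adjusted p = 0.138).

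With the Hox score as a covariate, the unadjusted threshold was passed by 1130 of all 18193 genes in the direction of higher values and by 2510 in that of lower values, in place of 934 and 945. The monocyte and macrophage genes higher were then 16 of 24 in place of 13, the metalloproteinases 5 in place of 3 and the ribosomal protein genes 6 in place of 10. The proliferation genes lower were 5 in place of 8 and the adipocyte genes 3 in place of 5. The fibroblast and matrix genes had a median of 0.27 in place of 0.04.

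**Figure D5:**
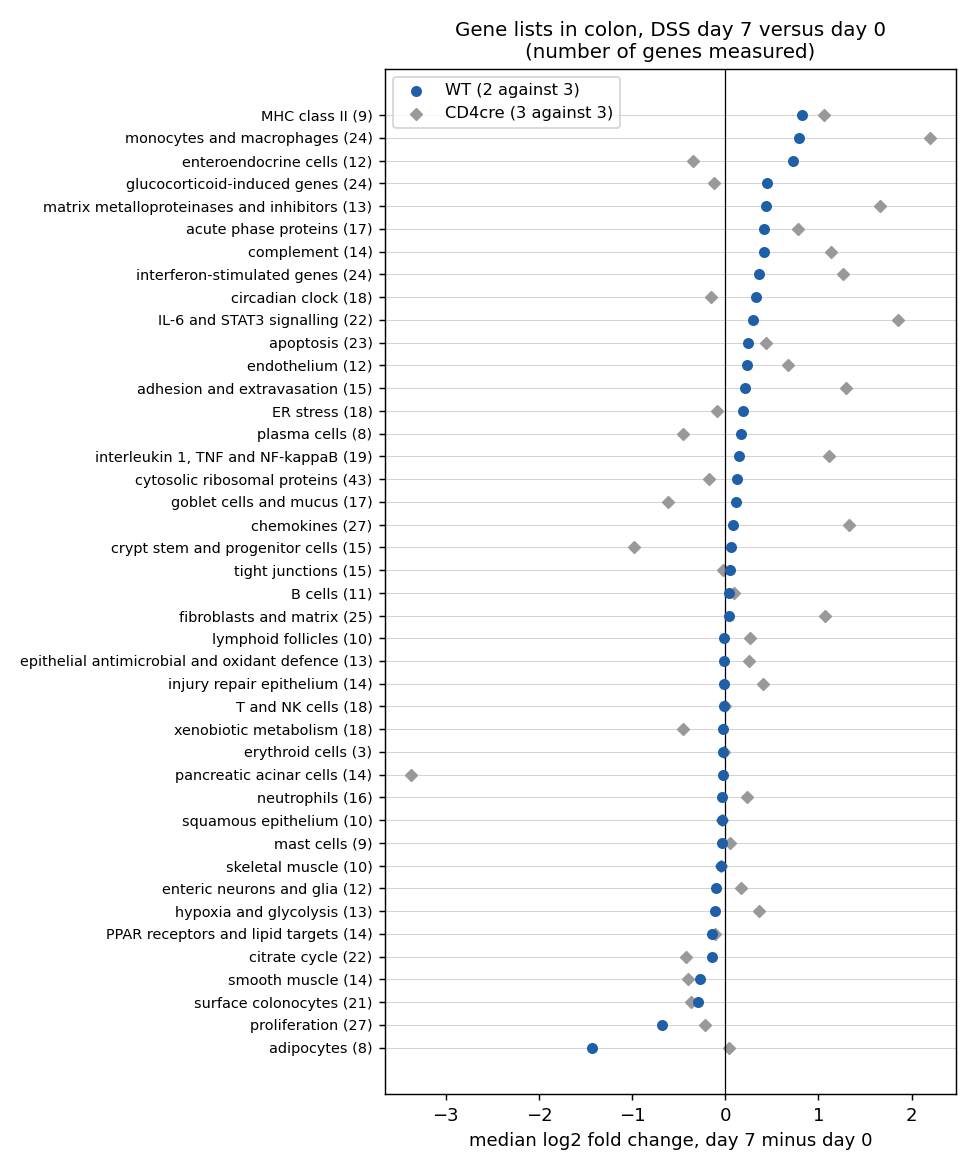
Median log2 fold change from day 0 to day 7 of each gene list in WT (circles) and CD4cre mice (diamonds), with the number of genes measured. In WT mice the medians run from -1.43 for adipocytes to 0.82 for MHC class II genes, and the glucocorticoid-induced genes are at 0.45 in WT and at -0.12 in CD4cre mice.

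WT day 7 was also compared with WT day 2, and 110 of 45037 probe sets were called (0.244%; 10.1% at an unadjusted p under 0.05), of which 63 were higher and 47 lower on day 7. The day 7 samples are those of the comparison with day 0, so the 2 comparisons are not independent. Of the genes above, Hdac6 was 2.01 higher on day 7 than on day 2 (SE 0.24, adjusted p = 0.00622), Ets2 was 0.68 higher (SE 0.08, adjusted p = 0.00622) and Hnrnpr 0.91 higher (adjusted p = 0.00622). S100a9 was 3.17 higher than on day 2 (SE 0.55, adjusted p = 0.0419). Podn fell by 0.60 on the log2 scale from day 2 to day 7 (adjusted p = 0.0182) and Slc25a5 fell by 0.70 (adjusted p = 0.0306). With the Hox score as a covariate 4 probe sets were called in place of 110, and this score was 1.25 to 1.43 on WT day 2 and -0.0803 and -0.00872 on WT day 7.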

How the data were processed

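The authors hybridized total RNA of colonic mucosa to Affymetrix mouse genome arrays and used gcRMA (R 2.9.0), a method that corrects background by probe sequence, quantile normalizes and gives 1 value per probe set. The deposited values are therefore on the log2 scale, and a difference of 1 is 1 doubling; low values are compressed by the background adjustment. No batch is named. Of 45101 probe sets, 64 controls were left out and 45037 were tested without a filter.

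Differences were fitted with limma 3.58.1 (R 4.3.3) as 6 group means, and the 17 samples share 1 estimate of the spread (11 residual and 0.888 prior degrees of freedom), with empirical Bayes moderation. Tests were two-sided. Probe sets with a Benjamini-Hochberg adjusted p under 0.05, within each of 3 comparisons, are named called. A fold against a group at background on all arrays was computed against the background level and is written as "at least". The fit was tested on simulated data.

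Platform annotation names 1 gene for 34945 probe sets, several for 932 and none for 9160, which gives 18193 genes. For the 44 gene lists each gene was read from its probe set with the highest mean over all samples, and 811 of 913 listed genes, background genes included, were measured. Genes named are those called, the 10 largest rises and falls, up to 4 list members with the largest change, and the genes of the study's figures; Muc2, Vil1 and some smaller list members were named after their values were seen. The members, lists and genes were chosen with earlier results of these data known. Alternatives were other fits, thresholds, normalizations and filters and leaving out 1 sample at a time. Replicate numbers were not taken as pairs. Of 40 same-number correlations of deviations from group means, 14 were over 0.1, with a range of -0.46 to 0.51. Samples of different number were not correlated, so these values cannot show whether the numbers pair samples. The raw arrays, flow cytometry, histology and RT-PCR were not analysed here.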

Additional observations from a re-analysis of the deposited data

Results flagged for a closer look

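The change from day 0 to day 7 differed between CD4cre and WT mice in the limma test of the difference itself (adjusted p under 0.05) for 19 of the 112 probe sets followed through the settings. The weak probe set of Socs3 was also called (adjusted p = 0.0216) but is not among these 19. Values are the CD4cre change minus the WT change on the log2 scale. The difference was positive for 4 genes: Il6 6.63, Hp 5.34, S100a9 4.88 and Lrg1 2.92. Lrg1 had a CD4cre day 0 mean of 3.5, just below background, with 1 array above it. The size of its difference rests in part on such values. Il6, Hp and S100a9 were below background on every day 0 array of both genotypes, so the sizes of their differences rest on values that do not measure a level. It was negative, with the larger rise in WT mice, for 7 probe sets above background on WT day 7: Zbtb16 -1.85, -1.74 for a probe set with no gene named (WT rise 1.54), Zfp579 -1.51, -1.5 for another (WT rise 1.45), Hps4 -0.669, Arid2 -0.622 and -0.578 for a further one (WT rise 0.647). The probe sets with -1.74 and -1.5 were below background on every WT day 0 array and in the CD4cre means of days 0 and 7. The sizes of their differences therefore also rest on values that do not measure a level.

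The other 8 were at or below background in both WT groups. They were 2 probe sets with no gene named, -0.971 and -0.789, Sidt1 -0.478, Gpr174 -0.336, Gimap6 -0.326, Trmt6 -0.29, Alms1 -0.279 and Folr1 -0.279. Most of these probe sets were named because they were called in WT mice, and the WT change is part of the difference. The cause of the differences was not tested.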

How the results depend on the processing

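The count of 39 called probe sets in WT mice on day 7 against day 0 was 5 with only the groups compared (1 shared with the 39), 68 with WT samples only, 2497 with array weights, whose estimate stopped before it converged, 205 with array weights estimated gene by gene, 12 with a filter on low values, 67 at an adjusted p under 0.1, 11 under 0.01, 6 with values under background raised to it and 12 with a filter on both WT groups compared (these 2 and the gene by gene weights were added after the data were seen). With the replicate block it was 20, of which 19 were among the 39. The sample titles give no link between samples of a block beyond the number. Leaving out 1 sample gave 18 to 228. The 63 calls of the difference between genotypes were 21 with only the groups compared, 1725 with the unconverged array weights, 922 with those estimated gene by gene, 122 with the filter, 275 at 0.1, 9 at 0.01, 27 with the replicate block, 99 with the Hox score, 26 without the 3 samples with pancreatic transcripts, 20 with values raised, and 20 to 1340 with 1 sample left out (1340 without CD4cre day 7 replicate 3). The 110 calls of day 7 against day 2 were 713 with only the groups compared, 260 with WT samples, 1215 with the unconverged array weights, 947 with those estimated gene by gene, 280 at 0.1, 21 at 0.01, 4 with the Hox score, 23 with values raised, and 48 to 330 with 1 sample left out. Itgav changed sign with the unconverged array weights (0.0924), with the Hox score (0.133) and without WT day 0 replicate 3 (0.0186; -0.23 to 0.0186 with 1 sample left out), Il6 with median centring (0.00114), quantile normalization (0.0118) and the Hox score (0.257), and Pparg with the replicate block (0.00366) and without WT day 0 replicate 3 (0.0404; -0.579 to 0.0404 with 1 sample left out). None of the other 109 probe sets followed through the settings changed sign; other probe sets and smaller list members quoted in the text were not followed. Calls above background that name a gene were lost in 2 (Ckap2l) to 27 (Rrp1) of 32 settings, with a median of 16, and in 3 for the first probe set of Zbtb16. WT samples alone give no difference between genotypes. The causes were not tested. With 2 samples on day 7 and background compression below 3.53, small changes of weakly expressed genes are not resolved.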
